A study of Mus musculus with 10 samples.

Results

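Obese epididymal fat of mice lacking ASC was compared with that of wild-type (WT) mice, gene by gene, on 7 of the 10 arrays of the series. The members were the 3 arrays whose titles name ASC-/- and the 4 whose titles name WT, with 1 array per mouse. All mice were male, had a C57/Bl6 background, were 8 to 12 weeks old when the diet began and ate 45 energy% of fat for 16 weeks before the epididymal white fat pad was taken. The genotype field of the ASC-/- mice reads ASC1 null. No lean or normal-diet group was analysed here. How the null line was made and whether the WT mice were littermates were not given in the sources used here. Another 3 arrays, of Casp1-/- mice on the same diet, served to estimate the spread and, for the genes that differed, as a second null genotype of the same pathway. Levels are log2 signals, so a difference of 1 is a 2-fold change. RMA, which made them, does not scale signals to transcript length, so levels are compared within a gene. Tests were made with limma over 17097 genes, each read from 1 probe set, and a gene is past the threshold when its Benjamini-Hochberg adjusted p is under 0.05.

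ASC, encoded by Pycard, is the adaptor that links sensor proteins such as NLRP3 to the protease caspase-1. The assembled complex, the inflammasome, cuts the precursors of interleukin-1beta and interleukin-18 to their active forms and can open gasdermin pores in the cell membrane. In obese fat this system is known mainly from macrophages, which gather around dying adipocytes, and its products can blunt insulin signalling in adipocytes. Most of its steps act on proteins, which these arrays do not measure.

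The tissue label held: the adipokine gene Adipoq lay at 13.23 to 13.66 in WT and 13.46 to 13.56 in ASC-/-, and the fatty acid carrier Fabp4 at 13.82 to 14.01 and 13.93 to 13.95. Several arrays stood apart. The mean of 6 smooth muscle and pericyte markers was 11.13 on WT 1 and 9.83 on ASC-/- 1, against 7.33 to 8.38 on the other 5 arrays. The sperm chromatin genes Tnp1, Prm1 and Prm2 read 11.05, 10.70 and 9.96 on ASC-/- 1 and 6.99, 7.17 and 6.97 on WT 1, and no more than 4.97 on the rest. WT 1 also had a high poly-A spike-in signal, 7.80 against 5.76 to 6.50 on the other 6 arrays. The excess of 3' over 5' actin signal, a sign of shortened RNA, was 1.05 and 0.91 on WT 1 and 2 and 0.46 to 0.67 on the others. WT 4 alone read high for the thermogenic genes Ucp1 (9.30) and Cidea (9.02). The labels name no batch, and the part of these features in the results below was not tested. Results were therefore recomputed without WT 1, without ASC-/- 1 and without both. Pairs of the 7 arrays correlated at 0.968 to 0.995, and no pair was identical.

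Between ASC-/- and WT fat 6 of 17097 genes (0.0351%) were past the threshold, 3 of them higher and 3 lower in ASC-/-. For the calls other than Pycard, the possible sources cannot be told apart. These are loss of ASC itself, DNA inherited along with the null allele and other strain differences between the groups. Pycard, the targeted gene, read 9.10, 9.65, 10.57 and 9.97 on WT 1 to 4 and 3.20, 3.71 and 3.30 on ASC-/- 1 to 3. The ASC-/- arrays lay within background, taken here as a group mean no higher than the brightest background control (5.01), and far from every WT array. Gdpd3, a glycerophosphodiesterase that forms lysophosphatidic acid, rose from 5.44, 5.47, 5.76 and 5.70 to 10.78, 10.66 and 10.41. That is a difference of 5.03 (95% interval 4.69 to 5.36; limma adjusted p = 6.76e-07), and the arrays within each genotype differed by less than 0.4 of a log2 unit. Dock2, which activates Rac in leukocytes and is needed for their migration, fell from 8.84, 9.40, 10.34 and 9.73 to 6.91, 6.87 and 6.98. Its WT arrays ranged widely while the ASC-/- arrays lay close together, and the difference was -2.66 (95% interval -3.29 to -2.02; limma adjusted p = 0.0147).

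Ide, the protease that degrades insulin, rose from 9.36, 9.17, 9.10 and 9.27 to 10.24, 10.32 and 10.19. Its difference of 1.02 had a 95% interval of 0.83 to 1.22 (limma adjusted p = 0.00314), and its 3 other probe sets differed by 1.05, 1.14 and 1.33 without overlap between the groups. Wdfy1, an endosomal adaptor of Toll-like receptor 3 and 4 signalling, rose from 6.33, 5.88, 6.48 and 6.43 to 7.80, 7.57 and 7.81, by 1.45 (95% interval 1.12 to 1.77; limma adjusted p = 0.0101). Its other probe sets gave 1.39, 1.43 and 0.15. Slx1b, which belongs to a nuclease that cuts branched DNA, fell from 5.05, 4.76, 4.78 and 4.70 to 3.48, 3.84 and 3.47. All but 1 of these values lay below the highest background control, and its 2 other probe sets differed by -0.06 and -0.25, so this fall rests on 1 dim probe set.

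**Figure D1:**
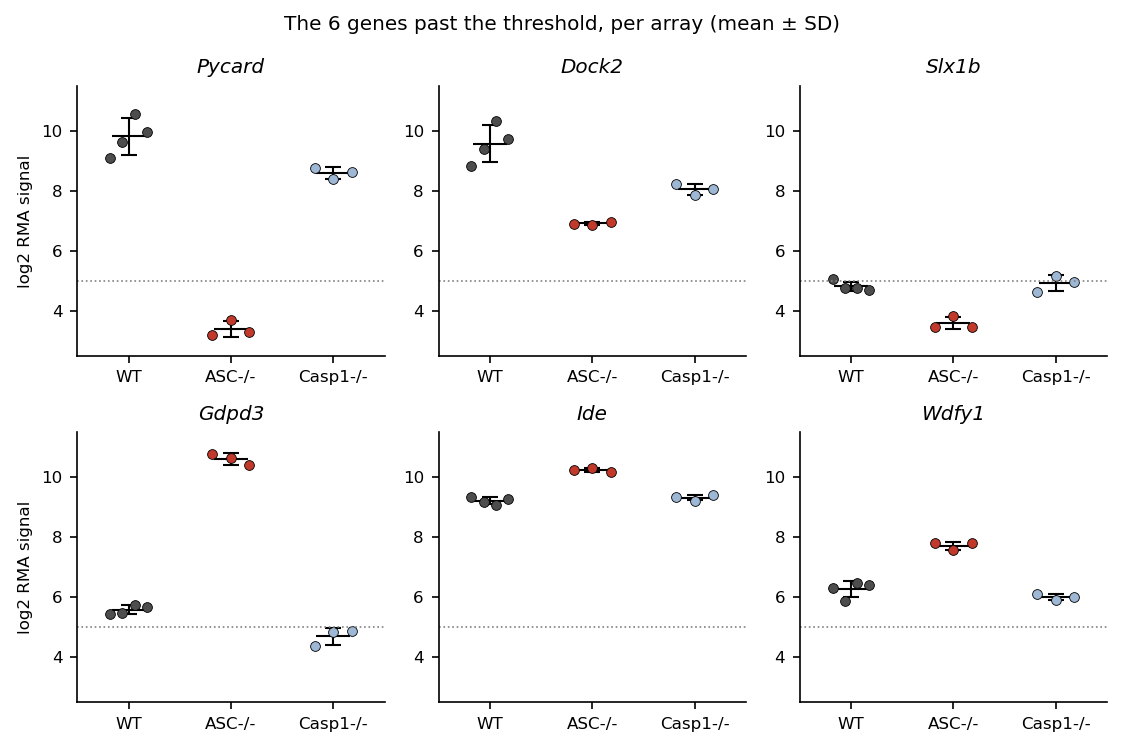
Log2 RMA signal (y axis) of Pycard, Dock2, Slx1b, Gdpd3, Ide and Wdfy1 on each array of the WT (n = 4), ASC-/- (n = 3) and Casp1-/- (n = 3) mice; points are arrays, bars are the mean ± SD and the dotted line is the highest background control, 5.01. In each panel the ASC-/- points lie wholly above or wholly below the WT points, and for Dock2 the Casp1-/- points lie between them.

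The calls differed in how firmly they stood. Gdpd3 and Pycard passed under all 22 alternative settings, with differences of 4.90 to 5.13 and -6.66 to -2.25, the last with all 3 probe sets of Pycard averaged. Ide passed under 21 of 22 (0.98 to 1.13), missing the threshold with the replicate number as a block (limma adjusted p = 0.186). Wdfy1 passed under 17 of 22 and was lost, among other settings, without ASC-/- 1 or without ASC-/- 3. Dock2 passed under 14 of 22 and was lost without any 1 of WT 2, WT 4, the 3 ASC-/- arrays or Casp1-/- 3. Slx1b passed under 6 of 21. Without both smooth-muscle-rich arrays Pycard, Gdpd3, Ide and Dock2 stayed past the threshold.

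Set against Casp1-/- fat on the same diet, 5 of the 6 genes differed as well, where 7.39% of all genes passed in that comparison. The 2 comparisons share the ASC-/- arrays. All 3 Casp1-/- arrays had a high spike-in signal, 7.51 to 8.07 against 6.21 to 6.30 on ASC-/-. Their actin 3' excess was also larger, 0.82 to 0.98 against 0.54 to 0.67. Genotype and these features cannot be told apart here. With the spike-in level as a block, 63 genes passed in this comparison in place of 1264, and 4 of the 6 genes did. Gdpd3 was 5.92 higher in ASC-/- than in Casp1-/- mice, whose mean was 4.70 ± 0.29 (SD, n = 3). Ide was 0.92 higher and Wdfy1 1.71 higher, and Pycard was 5.19 lower (-5.19). Slx1b differed by -1.33. Dock2 was 8.05 ± 0.17 (SD, n = 3) in Casp1-/- fat, and its difference of -1.13 missed the threshold (limma adjusted p = 0.0535). The mean of 22 pan-macrophage markers was 9.01 to 9.31 in Casp1-/-, 10.47 to 10.91 in ASC-/- and 9.84 to 11.24 in WT. Whether the Casp1-/- level of Dock2 goes with that of these markers was not tested.

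Across the rest of the genome differences were small. The median gene differed by 0.005, the median size of a difference was 0.074, and 91.0% of genes lay within 0.25 of no difference. A fitted difference below 0 was found for 48.3% of genes. At an unadjusted p under 0.05 there were 166 higher and 176 lower genes, together 2.0% of those tested. All arrays of ASC-/- lay above all WT arrays for 227 genes (1.33%) and below them for 318 (1.86%). More than 2-fold differences were seen for 41 genes on the higher side and 28 on the lower side, and of these 10 and 11 had no overlap between the groups. The half-width of the 95% interval of the median gene was 0.274, before adjustment over genes and with the spread of all 10 arrays. Differences smaller than this were mostly not detectable with 7 arrays. Much larger ones also missed the threshold, such as those of Rab4a (0.93) and Cd209f (-1.24).

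**Figure D2:**
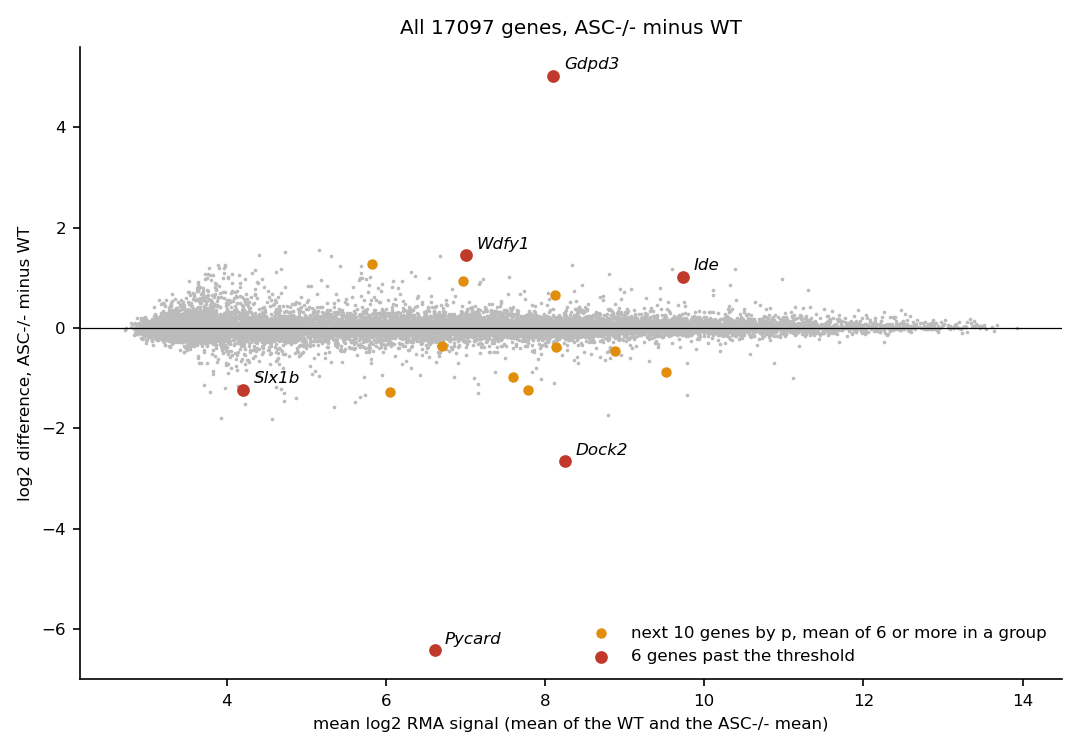
Log2 difference ASC-/- minus WT (y axis) against the mean log2 RMA signal of the 2 groups (x axis) for all 17097 genes, 1 point per gene. The 6 genes past the threshold (red) include the largest differences in either direction, 5.03 for Gdpd3 and -6.42 for Pycard, and the next 10 by p among genes with a mean of at least 6 in a group (orange) lie between -1.27 and 1.28.

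The ASC-/- arrays resembled each other more than the WT arrays did. Among 8374 genes with a mean of at least 6 over all 10 arrays, the median SD was 0.209 over the 4 WT arrays and 0.107 over the 3 ASC-/- arrays, and the ASC-/- SD was the smaller in 84.0% of genes. With 3 arrays on each side that share was 79.0% without WT 1 and 72.1% without WT 3. Genes are not independent of each other, so these shares are a description.

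The next 10 genes in order of p, among those with a mean of at least 6 in a group, missed the threshold (limma adjusted p of 0.433 and above) and had groups that did not overlap. Rab4a, a small GTPase of endosome recycling, read 6.15, 6.59, 6.61 and 6.66 in WT and 7.51, 7.33 and 7.46 in ASC-/- (difference 0.93, SE 0.16). It was 7.34 in Casp1-/- fat, so the means of both null genotypes lay above WT. Entpd4, a nucleotide phosphatase of the Golgi, read 8.58, 8.19, 7.75 and 7.81 in WT and 7.10, 7.13 and 7.08 in ASC-/- (difference -0.98, SE 0.18). Slc25a37, the mitochondrial iron importer, differed by -0.88 and lies next to Entpd4 in chromosome order. The other probe sets of Slc25a37 disagreed: 1 differed by -0.94, the other by 0.19 with overlap (7.37 in WT and 7.55 in ASC-/-). Nnt, a mitochondrial enzyme that supplies NADPH and is damaged in one common C57BL/6 substrain, read 7.89, 7.64, 7.94 and 7.72 in WT and 8.51, 8.50 and 8.36 in ASC-/- (difference 0.66, SE 0.13). Cd209f and Cd209g, neighbouring lectin genes of which the first is known from resident macrophages, differed by -1.24 and -1.27. As close relatives they may share probes. Apold1, an early response gene of blood vessels, was 5.18 ± 0.53 (SD, n = 4) in WT and 6.46 ± 0.43 (SD, n = 3) in ASC-/-. Xaf1, an interferon-induced gene, differed by -0.39 and Rusf1 by -0.35.

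Of the genes with larger differences and no overlap, none of the following passed the threshold. The melatonin-receptor relative Gpr50 (1.17), Erdr1 (1.17), the tetraspanin Tspan33 (1.11), the matrix protein gene Ccn1 (1.08) and the T cell adaptor Lat (0.99) were higher in ASC-/-. Lower were Jchain (-1.73) and Igkj1 (-0.99), both transcripts of antibody-secreting cells, Ms4a4b (-1.47), which marks T cells, Tgtp1 (-1.01), an interferon-induced GTPase, and Id1 (-0.87), a target of bone morphogenetic protein signalling. Jchain read 9.88, 9.47, 9.74 and 9.54 in WT and 8.60, 6.30 and 8.86 in ASC-/-. ASC-/- 2 was much lower than the other 2, as it was for Igkj1 (9.40 against 11.15 and 11.32).

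Gdpd3 and Slx1b lie 60 and 63 tested genes from Pycard on chromosome 7, and 3 from each other. Both were past the threshold, the only 2 of the 200 nearest genes to pass, against 0.0351% of all genes. Within these 200, 14 had groups that did not overlap, 7 in each direction. That is 7% of them, against 3.19% of all genes. Of the 20 nearest genes, 4 had an unadjusted p under 0.05, against 2.0% of all genes. They were Itgax (0.85, overlapping), the integrin of inflammatory fat macrophages, Cox6a2 (0.36), a muscle-type subunit of cytochrome c oxidase, 9130023H24Rik (-0.67) and Rusf1. Itgam, the gene next to Pycard on that side and the integrin that defines myeloid cells, was 6.92 ± 1.22 (SD, n = 4) and 6.87 ± 0.44 (SD, n = 3). Prss36 and Prss8 on the other side differed by 0.05 and -0.30 with overlap. Itgal, a leukocyte integrin 28 genes away, was 5.79 ± 0.25 in WT and 5.11 ± 0.30 in ASC-/-, without overlap.

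**Figure D3:**
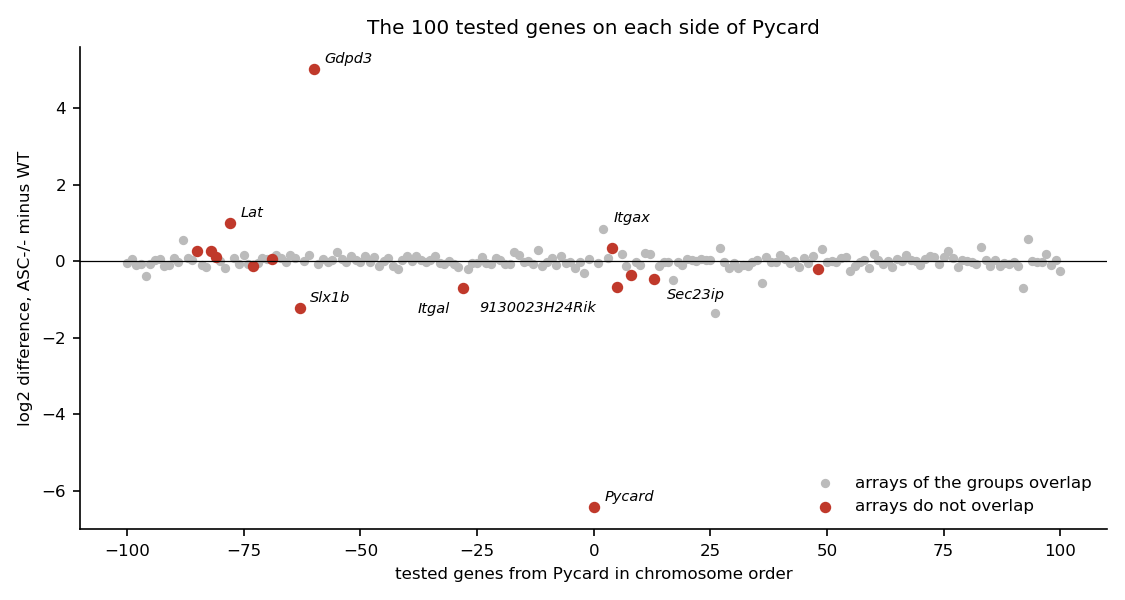
Log2 difference ASC-/- minus WT (y axis) of Pycard and the 100 tested genes on each side, in their order along chromosome 7 (x axis, counted in tested genes); red points have no overlap between the arrays of the groups, 7 above and 7 below WT beside Pycard itself. Gdpd3 at -60 and Slx1b at -63 stand out on the same side. Of the genes near Pycard, the adjacent Itgam (-0.05) and Prss36 (0.05) lie close to 0, while Itgax (0.85), 9130023H24Rik (-0.67) and Cox6a2 (0.36) do not.

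Sec23ip, a vesicle coat partner 13 genes from Pycard, gave opposite readings from its probe sets. The brighter one was 9.11 ± 0.13 (SD, n = 4) in WT and 8.66 ± 0.04 (SD, n = 3) in ASC-/- (-0.45). The other read 6.88, 6.91, 6.70 and 6.69 in WT and 8.37, 8.39 and 8.34 in ASC-/-, a difference of 1.57 that passed when every probe set was tested (limma adjusted p = 5.3e-05). Tested that way, 11 of 45037 probe sets (0.0244%) passed. Beside those of the 6 genes and this one, they included 3 for Ide in all and 2 with no single gene symbol, one of them lower by -1.74 and the other higher by 1.10.

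The other genes of the inflammasome hardly differed, and apart from Pycard none of the 23 measured passed. Among the 6 sensors, the NLRC4 partners Naip2 and Naip5 differed by 0.24 and 0.06 and Nlrp3 by 0.13. Nlrp3 read 4.52, 4.30, 4.34 and 4.20 in WT and 4.25, 4.54 and 4.61 in ASC-/-, within background, as were Mefv, Nlrp6 and Nlrp12. All 4 caspases lay within 0.14 of WT. Casp1, the effector protease, read 8.71, 9.09, 9.99 and 9.49 in WT and 9.47, 9.30 and 9.30 in ASC-/-, so the null arrays lay inside the WT range (0.04, 95% interval -0.53 to 0.60). Casp4, the protease of the noncanonical pathway, differed by 0.14, Casp8 by 0.05 and Casp12 by 0.01. Of the membrane executors, Ninj1 differed by -0.13 and Gsdme by 0.12.

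The 10 activators and regulators differed by -0.15 to 0.18. P2rx7, the ATP-gated channel that triggers NLRP3, was 8.18 ± 0.54 (SD, n = 4) and 8.36 ± 0.23 (SD, n = 3), and its relative P2rx4 10.24 ± 0.51 and 10.30 ± 0.25. Panx1, a channel for ATP release, differed by 0.05. Nek7, the kinase that binds NLRP3, read 10.86 to 10.95 in WT and 10.92 to 10.94 in ASC-/-, with an interval of -0.11 to 0.16. Txnip, which binds thioredoxin and has been linked to NLRP3, and the lysosomal protease Ctsb differed by 0.00 and 0.11. Hmgb1 differed by -0.04, Sting1 by 0.03, Zbp1 by -0.11 and Card14, within background in both groups, by -0.15. Of 12 genes with the same kind of interaction domain as ASC, 8 lay below WT (median -0.03). The interferon-inducible Ifi209 differed by -0.54 (unadjusted p under 0.05), Ifi213 by -0.42, Ifi205 by -0.24, and Bcl10, an adaptor of antigen receptor signalling, by 0.19.

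The interleukin-1 family, the substrates of the complex and the genes around them, did not differ past the threshold in any of 19 members, and the median was 0.04. Of 5 ligands only Il18 and Il33 were measured above background. Il18, the brightest, read 7.78, 7.94, 8.24 and 7.98 in WT and 7.54, 8.08 and 7.90 in ASC-/- (-0.14). Il33, an alarm signal made by stromal cells, differed by -0.36 with an interval of -1.26 to 0.54. Il1b (3.98 and 3.94), Il1a and Il1f9 lay within background in both groups, so a difference in them was not detectable. The receptor Il1r1 differed by 0.22, its partner Il1rap by 0.23 and the decoy Il1r2 by 0.10. Il18r1 and Il18rap, within background in both groups, differed by 0.06 and -0.01 and the inhibitory Sigirr by 0.09. The antagonist Il1rn ranged over 7.45 to 9.28 in WT and 8.27 to 9.08 in ASC-/- (0.10), and Il18bp, which traps interleukin-18, differed by -0.15. In the signalling chain Myd88 differed by 0.10, Irak1 by 0.04, Irak2 by -0.16, Irak3 by 0.18 and Tollip by 0.06. Traf6 (-0.01) lay within background in both groups.

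Genes that interleukin-1 and NF-kappaB induce were, if anything, above WT: 15 of 20 lay higher, with a median of 0.17 that kept its sign under every setting (0.07 to 0.24). None passed the threshold, and the arrays overlapped for all 20. The chemokine Ccl2, which draws in monocytes, read 8.73, 9.62, 9.40 and 8.87 in WT and 9.50, 9.74 and 9.95 in ASC-/- (0.58, 95% interval 0.03 to 1.12). Ccl5, a chemokine of T cells, went the other way, with 7.86, 8.14, 8.39 and 8.50 against 7.45, 7.33 and 8.05 (-0.61). The acute-phase genes Saa3, Serpina3n and Hp differed by 0.99, 0.26 and 0.17. Saa3 read 9.25 to 11.51 in WT and 10.78 to 12.02 in ASC-/-.

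**Figure D4:**
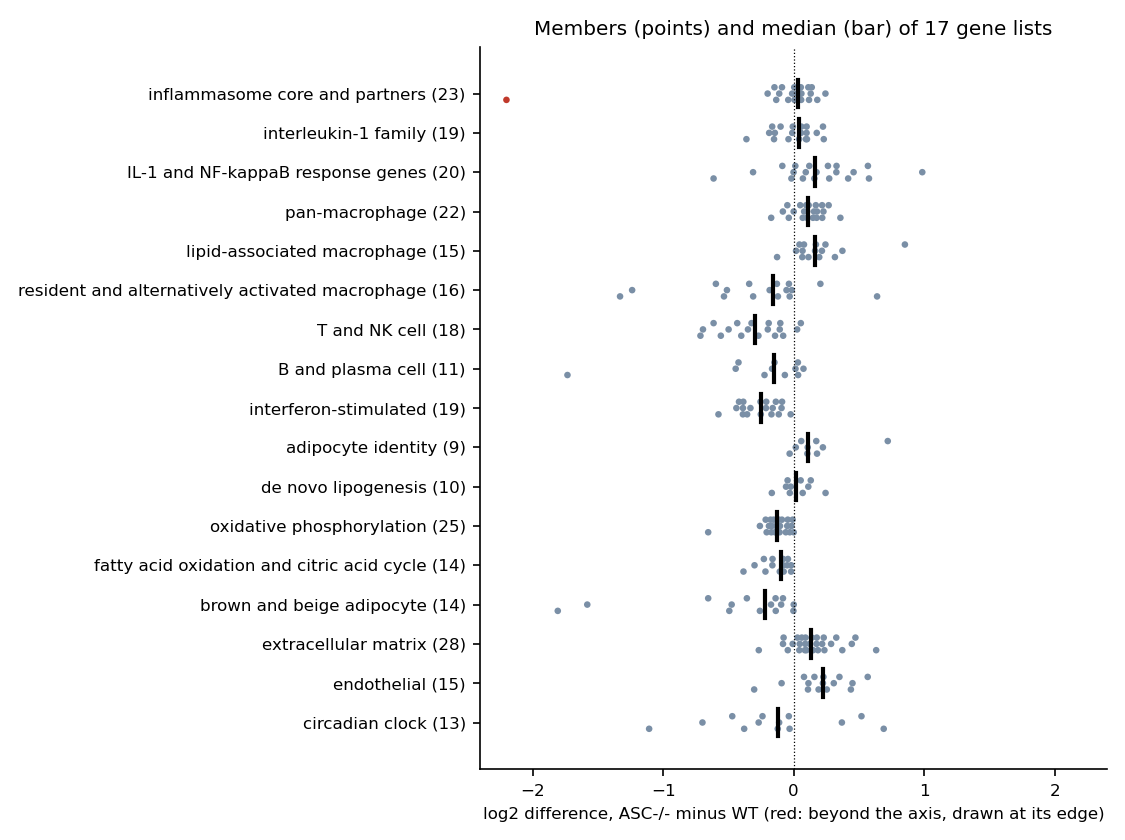
Log2 difference ASC-/- minus WT (x axis) for the members (points) and the median (black bar) of 17 gene lists, with the number of measured members in brackets; the red point is Pycard (-6.42), drawn at the edge of the axis. The 19 interferon-stimulated genes all lie left of 0, as do 24 of 25 oxidative phosphorylation genes and 16 of 18 T and NK cell markers.

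Pan-macrophage markers gave no call in any of 22 members and varied more among the WT arrays than between the genotypes. Their mean was 9.84, 10.27, 11.24 and 10.82 on WT 1 to 4 and 10.91, 10.58 and 10.47 on ASC-/- 1 to 3, so the ASC-/- arrays lay inside the WT range. The median of 0.11 turned to -0.10 without WT 1 and to -0.22 without WT 1 and ASC-/- 1. Lysozyme, Lyz2, differed by 0.17 and cathepsin S, Ctss, by 0.11. The lipid-associated macrophage genes, of crown cells around dead adipocytes, had a median of 0.16 that turned to -0.21 without both arrays. Itgax was the member with the smallest p (0.85), with 9.06 to 10.68 in WT and 10.42 to 11.24 in ASC-/-. Ctsk differed by 0.37, Lgals3 by 0.07 and Lpl by 0.02. Cell cycle genes followed the order of these markers over the WT arrays, with means of 6.60 to 7.74 in WT and 6.91 to 7.37 in ASC-/-.

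Markers of resident and alternatively activated macrophages lay lower, in 14 of 16 members (median -0.16, -0.27 to -0.14 over the settings). None passed the threshold. The mean over the list was 8.52, 8.52, 8.44 and 8.37 in WT and 8.06, 8.16 and 8.31 in ASC-/-, without overlap. Cd209f read 8.51, 8.59, 8.41 and 8.12 in WT and 7.17, 6.91 and 7.43 in ASC-/-. Ccl8, a chemokine of these cells, read 10.78, 10.76, 10.69 and 9.56 in WT and 8.99, 8.47 and 9.89 in ASC-/- (-1.33), with WT 4 lowest and overlapping ASC-/- 3. The scavenger receptor Cd163 differed by -0.60 and Lyve1 by -0.31, while the abundant Mrc1 (-0.13) and Retnla (0.20) differed little. In whole tissue fewer cells of a type and less RNA per cell cannot be told apart. MHC class II genes (11 measured, median 0.04) did not differ past the threshold, with H2-Aa at -0.03, H2-Eb1 at 0.10, Cd74 at 0.24 and Ciita at 0.37. Dendritic cell markers (7 measured, median -0.05) included Itgae at 0.29, Flt3 at 0.09, Irf8 at 0.09 and Batf3 at -0.06. Of the 7, 4 lay within background in both groups, Itgae and Flt3 among them. Of 15 Toll-like receptor genes 1 passed (0.0351% of all genes), Wdfy1, already described above. Cd14 differed by 0.27 and Tlr9 by 0.20.

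T and NK cell markers lay lower in ASC-/- fat in 16 of 18 members, with a median of -0.30 (-0.50 to -0.19 over the settings). None passed the threshold over all genes. An unadjusted p under 0.05 was found for 7 of the 18 (2.0% of all genes), and 6 lay wholly below WT (1.86% of all genes). Of the 18, 13 lay within background in both groups, so sizes are uncertain. Cd3g, a chain of the T cell receptor complex, read 3.95, 4.19, 4.44 and 4.77 in WT and 3.63, 3.73 and 3.58 in ASC-/-. Cd2, an adhesion protein of T and NK cells, read 5.46, 5.37, 5.35 and 5.78 against 4.79, 5.12 and 5.06 (-0.50). The list mean was 4.35 to 4.63 in WT and 4.14 to 4.27 in ASC-/-. With the actin 3' excess as a covariate Cd3g passed (limma adjusted p = 0.04). B and plasma cell markers (11 measured, median -0.15) held Jchain, Tnfrsf17 (-0.44), the receptor of plasma cell survival signals, and Xbp1 (0.03). Of the 11, 6 lay within background in both groups, Tnfrsf17 (3.94 and 3.49) among them. Mast cell proteases followed single arrays: Mcpt4 read 7.17, 7.15, 9.68 and 9.11 in WT and 8.54, 6.81 and 7.11 in ASC-/-, and Cma1 and Cpa3 differed by -0.63 and -0.54. Of 9 neutrophil markers (median 0.02) 6 lay within background. The highest difference was that of S100a8 (0.75) and the lowest that of Ltf (-1.29), which was high on WT 1 (7.32) and WT 2 (5.78). The 5 eosinophil markers lay within background.

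All 19 interferon-stimulated genes measured lay below WT, with a median of -0.25 (-0.28 to -0.15 over the settings), against 48.3% of all genes below WT. The differences were small and none passed the threshold. An unadjusted p under 0.05 was found for 6 of the 19 (2.0% of all genes), and 6 lay wholly below WT (1.86% of all genes). Xaf1 read 8.25, 8.20, 8.42 and 8.45 in WT and 7.82, 8.09 and 7.91 in ASC-/-. Oas2, which makes the activator of an antiviral nuclease, read 5.94, 5.51, 5.83 and 5.52 against 5.26, 5.38 and 5.20 (-0.42). Rtp4, the member with the largest difference, read 9.08, 8.44, 8.97 and 8.26 against 8.04, 8.14 and 8.15 (-0.58). The abundant Ifi27l2a (-0.09) and Gbp2 (-0.02) hardly differed. The list mean was 7.75, 7.52, 7.47 and 7.36 on WT 1 to 4 and 7.19, 7.30 and 7.30 on ASC-/- 1 to 3.

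Many such genes share a promoter motif known as the interferon-stimulated response element. Its core was searched as GAAANNGAAA, or TTTCNNTTTC on the other strand, with overlapping matches allowed, from 250 bases before to 50 after the start of each gene in RefSeq promoters of GRCm38.p6. Not every chromosome was searched: the promoters of a whole chromosome were left out before counting. Of the 19 members 13 had an entry among the promoters searched, and 9 of these held the core (69.2%). The core was in 3.59% of the searched promoters of 13605 measured genes and in 3.99% of all 27025 searched. A member without an entry may therefore still have a promoter that was left out. The list was chosen for genes that interferon induces, so its high share follows from that choice and says nothing of ASC-/- against WT. The match is a description of letters and says nothing of binding. The windows below, on the gene's strand with the core in capitals, show how the element sits in 4 members that were chosen after their values were seen.
Ifit3: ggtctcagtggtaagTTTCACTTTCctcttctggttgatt
Gbp3: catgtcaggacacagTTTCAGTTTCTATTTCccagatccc
Igtp: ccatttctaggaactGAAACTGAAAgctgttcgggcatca
Irgm1: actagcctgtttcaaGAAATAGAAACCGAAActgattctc

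Counted from the start base as 0, the Ifit3 core lies at -156 to -147 (window chr19:34583358-34583397, plus strand) and the first Gbp3 core at -45 to -36 (chr3:142559984-142560023, plus strand). The Igtp core lies at -34 to -25 (chr11:58199507-58199546, plus strand) and the first Irgm1 core at -30 to -21 (chr11:48871426-48871465, minus strand). In Gbp3 and Irgm1 a second core overlaps the first, and the Ifit3 promoter holds a second core that is not shown. Ifit3, whose protein binds viral RNA sensors, differed by -0.39. The GTPases that act on parasite-containing vacuoles, Igtp, Irgm1 and Gbp3, differed by -0.44, -0.25 and -0.33. Gbp3 read 8.36, 8.17, 8.04 and 7.96 in WT and 7.67, 7.81 and 7.92 in ASC-/-, without overlap, while the other 3 overlapped. The core is also in the promoters of Gbp2 (-0.02), Rsad2 (-0.09), Ddx58 (-0.11) and Ifih1 (-0.16), which differed less, and of Ifit1 (-0.36).

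**Figure D5:**
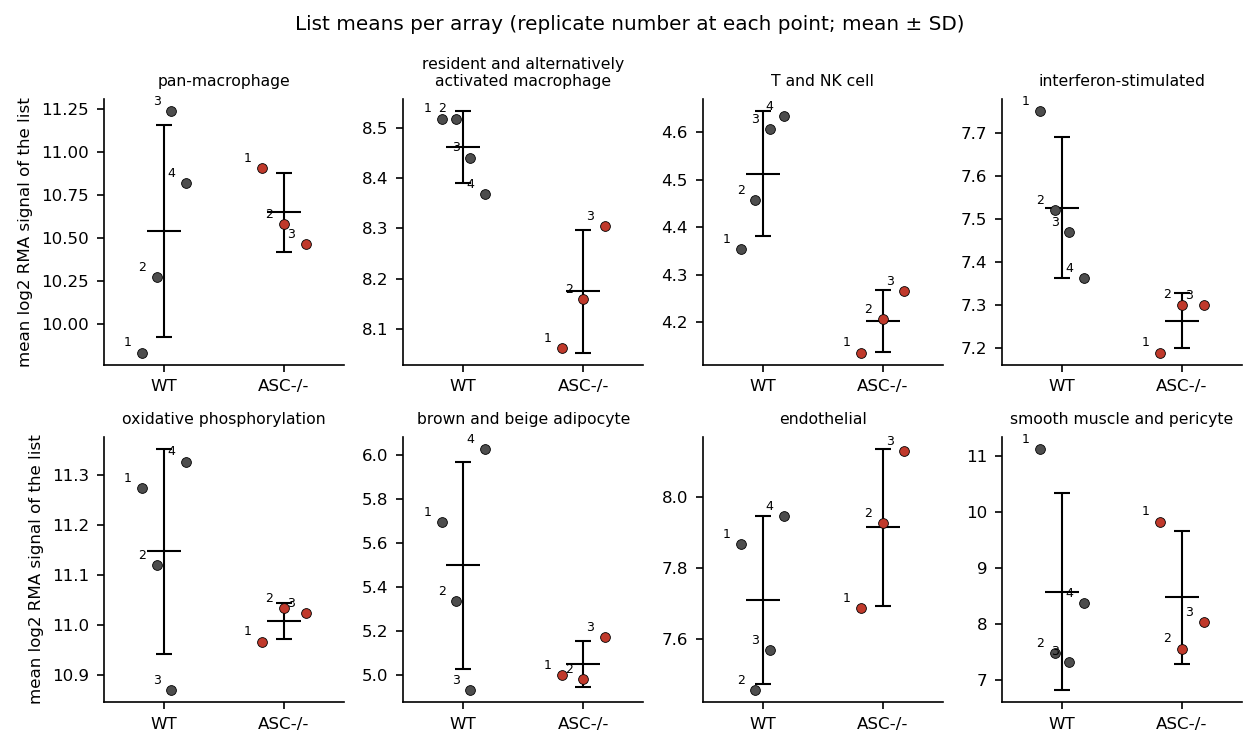
Mean log2 RMA signal of 8 gene lists (y axis, a separate range in each panel) on each WT (n = 4) and ASC-/- (n = 3) array, with the replicate number beside each point and the mean ± SD as bars. The groups do not overlap for the resident macrophage, T and NK cell and interferon-stimulated lists, and WT 1 (11.13) and ASC-/- 1 (9.83) stand above the rest in the smooth muscle panel.

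Genes of the adipocyte itself were close to WT. Of 7 adipokine genes none passed (median 0.02). Leptin, Lep, read 12.61, 12.78, 12.02 and 12.49 in WT and 12.55, 12.80 and 12.78 in ASC-/- (0.23), and Nrg4 differed by -0.40. Among 9 adipocyte transcription factors and regulators, Pparg, the master regulator of fat cells, differed by 0.06 and the early factors Cebpd and Cebpb by 0.72 and 0.22, both with an unadjusted p under 0.05. De novo lipogenesis (10 measured, median 0.02) held Acly at 0.11, Scd1 at 0.05, Elovl6 at 0.24 and Thrsp at -0.02. Triglyceride genes (12 measured, median 0.01) held Dgat2, which makes triglyceride, at 0.10, and lipolysis genes (7 measured, median -0.01) held G0s2, an inhibitor of the lipase ATGL, at -0.16, Pde3b at -0.11 and Mgll at 0.09. Of 15 insulin signalling genes none passed (median -0.05). Grb14, an inhibitor of the insulin receptor, read 9.31, 8.65, 8.04 and 9.08 in WT and 8.03, 7.95 and 8.21 in ASC-/- (-0.70), Irs1 differed by -0.24, Pik3r1 by 0.06 and Pik3ca by -0.04. Ide, described above, belongs to none of these lists.

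Mitochondrial genes lay slightly lower. Of 25 oxidative phosphorylation genes 24 were below WT, with a median of -0.13 (-0.22 to -0.06), and all 14 genes of fatty acid oxidation and the citric acid cycle were below it, with a median of -0.09 (-0.19 to -0.02). None passed and all overlapped. The list mean of the first was 11.27, 11.12, 10.87 and 11.33 in WT and 10.97, 11.03 and 11.02 in ASC-/-, so WT 3 lay below every ASC-/- array. Uqcrc2, a core protein of complex III, differed by -0.21, Cox4i1 by -0.06, Acadvl by -0.30, Fh1 by -0.16 and Mdh2 by -0.08. Of 14 brown and beige genes 13 were below WT (median -0.22, -0.42 to -0.14), and 7 of the 14 lay within background in both groups. Ppargc1b, a coactivator of mitochondrial genes, read 7.82, 7.63, 7.40 and 7.68 in WT and 7.18, 7.16 and 7.14 in ASC-/-, a small difference without overlap (-0.47). Ebf2 differed by -0.36. Cox8b, a subunit of cytochrome c oxidase, ranged over 8.48 to 10.63 in WT and 8.84 to 9.11 in ASC-/-. Ucp1, the heat-producing uncoupler, read 4.74, 3.97, 3.89 and 9.30 in WT and 3.50, 3.66 and 3.85 in ASC-/-, so its difference of -1.81 was set by WT 4, and that of Cidea (-1.58) likewise.

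Most matrix and endothelial genes lay slightly above WT, but the list means of the groups overlapped, and 48.3% of all genes lay below WT. Of 28 extracellular matrix genes 23 were above WT (median 0.13, 0.09 to 0.22) and none passed. Their mean was 10.01 to 10.05 in ASC-/-, inside the WT range of 9.65 to 10.15. Col3a1 and Sparc, the brightest, differed by 0.10 and 0.09, and Tnc by 0.47 and Ccn2 by 0.63. Of 15 endothelial markers 13 were above WT (median 0.22, 0.09 to 0.34), with means of 7.46 to 7.95 in WT and 7.69 to 8.13 in ASC-/-. Pecam1 read 7.84, 7.60, 7.53 and 7.46 in WT and 7.77, 8.13 and 8.27 in ASC-/- (0.45), and Cldn5, of tight junctions, differed by 0.57. The 4 red blood cell genes lay above WT (median 0.21), with Hbb-b2 at 0.21 and Hba-a1 at 0.12. Smooth muscle genes (6 measured, median -0.11) went with WT 1 and ASC-/- 1: Des read 9.46, 6.41, 5.98 and 6.20 in WT and 7.62, 6.47 and 6.33 in ASC-/-, and Myl9 and Acta2 differed by -0.19 and -0.04. Progenitor markers (10 measured, median 0.00) held Pdgfrb at 0.30, Cd34 at -0.08 and Zfp423 at 0.21. The 10 mesothelial markers (median -0.14) spread widely within each group, with Krt19 at 9.41, 7.74, 6.38 and 7.22 in WT and 7.67, 7.01 and 7.34 in ASC-/-. Markers of other tissues had medians of -0.14 (7 skeletal muscle genes), -0.08 (5 of pancreas), -0.07 (4 of lymph node stroma) and -0.03 (9 of epididymis and testis). Fat expansion markers (4 measured, median 0.10) held Sfrp5 at 0.67 and Npr3 at 0.14.

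Stress and signalling genes gave no call. Of 21 immediate early genes 15 were above WT (median 0.20, but 0.01 without both smooth-muscle-rich arrays), led by Ccn1, at 8.00, 8.14, 8.08 and 8.84 in WT and 8.87, 9.12 and 10.05 in ASC-/-, and Dusp1 (0.75). Unfolded protein response genes (16 measured, median 0.00) held Calr at 0.15 and Ddit3 at -0.11, hypoxia genes (11 measured, median 0.09) Hif1a at 0.12, Ldha at 0.07 and Bnip3 at 0.13, and oxidative stress genes (14 measured, median -0.03) Gpx1 at 0.06 and Prdx1 at 0.05. Of 13 clock genes 10 lay below WT (median -0.12), with differences from -1.11 to 0.69 over the list. The output gene Tef differed by -0.47 and Nr1d2 by -0.38, while Npas2, of the opposite phase, read 4.56, 4.81, 4.92 and 4.69 in WT and 5.75, 5.08 and 4.97 in ASC-/-. The labels do not give the time of day at which the mice were killed. Of 12 cholesterol synthesis genes 9 were above WT (median 0.09), with Dhcr7 at 0.41, Fdps at 0.23 and Insig1 at 0.27.

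No relative of Gdpd3 or Dock2 passed the threshold. Among 18 genes of lysophospholipid and endocannabinoid metabolism Gdpd3 alone passed. The lysophosphatidic acid receptor Lpar4 differed by -0.36, without overlap, and Plpp3, which breaks lysophosphatidic acid down, by 0.07. Among 13 genes of DOCK and ELMO proteins and their Rac targets Dock2 alone passed, with Dock11 at -0.18 and Rac1 at 0.06. Of 12 genes known to differ between mouse strains or substrains, or linked to them, 3 passed (Dock2, Wdfy1 and Ide), against 0.0351% of all genes. This list was drawn up with results of these data known, so its count is no independent evidence. Abundant genes that scarcely differed were Itm2b (-0.01), Rpl41 (0.02), Fabp4 (0.01) and Adipoq (0.02), each with a mean over 12.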

How the data were processed

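RNA of 10 mice was read on Affymetrix HT_MG-430 PM arrays, per the labels. The deposited values are log2 signals from RMA (no version named), per the submitters' processing notes. RMA gives every array the same distribution, so a change in total RNA leaves no trace. The genome build was not given in the sources used here. Depth does not apply to arrays: their number limits precision. The p-values set a difference against the spread within genotypes, estimated over all 10 arrays.

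Of 45141 probe sets 104 were controls, 28898 had 1 gene symbol, 551 several and 15588 none. Each gene was read from its brightest probe set over the 10 arrays, giving 17097 genes without a filter. Symbols follow the platform annotation, and gene order follows GRCm38.p6. limma 3.58.1 in R 4.3.3 fitted 1 mean per genotype over all 10 arrays, with two-sided tests and Benjamini-Hochberg adjustment over all genes, and was tested on simulated data. The 46 gene lists (595 of 680 entries matched) are described by counts and medians.

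Named genes were Pycard and all past the threshold; the next 10 by p and the 5 largest differences each way without overlap, at a mean of at least 6; inflammasome and interleukin-1 family genes; up to 2 members with the smallest p and 2 brightest of other lists; 10 genes on each side of Pycard; and abundant genes that scarcely differed. Others named (such as Rtp4, Igtp, Cd163, Saa3, Ucp1, Cidea and Tnp1) were chosen after their values were seen. Members and lists were chosen with earlier results of these data known. Alternatives changed normalization, filter, probe set rule, variance model, weights, groups fitted and covariates, or left out arrays. Leaving out WT 1 and ASC-/- 1 together was added after the data were seen.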

Additional observations from a re-analysis of the deposited data

Results flagged for a closer look

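In groups of 4 arrays a value was picked out when its gap to the nearest other array exceeded the 95% critical value of Dixon's test. Of 254 groups of WT values examined 10 were picked out, where chance gives about 1 in 20. WT 1 was lowest for Rab4a (6.15) and Il18bp (5.03) and highest for Des (9.46) and Ifi213 (5.75). WT 3 was lowest for Ifi27l2a (12.93), Elovl6 (6.94) and Scd1 (13.38). WT 4 was highest for Ccn1 (8.84) and for the mean of the lymph node stroma list (5.53), and lowest for Ccl8 (9.56). Groups of 3 were not examined.

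Among probe sets that stood for no gene, the second probe set of Sec23ip was higher in ASC-/- by 1.57, and one with no single symbol was higher by 1.10. The latter read 6.30, 6.51, 6.20 and 6.40 in WT and 7.36, 7.36 and 7.63 in ASC-/-.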

How the results depend on the processing

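The count of 6 genes past the threshold was 11 when every probe set was tested, 3 when only the compared groups were fitted and 3 with the replicate number as a block, and it ranged from 3 to 6 over the 10 fits that each left out 1 array. The count fell to 3 without ASC-/- 1 or without ASC-/- 3. Same-numbered ASC-/- and WT arrays deviated from their group means with correlations of 0.18, 0.15 and -0.26, so the numbers were not taken to pair the mice, and in that fit WT 4 adds nothing to the difference. The genes left with the replicate block were Gdpd3, Pycard and Wdfy1. Of the 6 genes, 5 also differed from Casp1-/-. This count was 3 with the replicate block, 4 with the spike-in block and 5 to 6 over fits without 1 array. Cd3g passed only with the actin covariate and Nat8l only without WT 3. No difference of a named gene past the threshold changed sign. Averaging probe sets turned Sec23ip to 0.56. Medians of the pan-macrophage and lipid-associated lists changed sign without WT 1 (-0.10 and -0.03), with the actin covariate and with the spike-in block, the first also with array weights. List medians kept their sign under all settings run for the interleukin-1 response, resident macrophage, T and NK cell, mast cell, eosinophil, interferon-stimulated, oxidative phosphorylation, fatty acid oxidation, beige, matrix, endothelial, red blood cell, immediate early, clock and cholesterol lists, and every other list's median changed sign under at least 1. The eosinophil list could not be computed without genes of mean under 5. With 7 arrays small differences, and those of the many genes near background, were not detectable.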

Other observations

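Some features of single arrays ran across otherwise unrelated genes. ASC-/- 2 had the lowest plasma cell transcripts of the 7 arrays, with Jchain at 6.30 and Igkj1 at 9.40, and also the lowest Cxcl13 (5.45 against 6.62 to 9.12 on the others), a chemokine of B cell follicles. The 3 sperm chromatin genes were high on ASC-/- 1 and, less so, on WT 1, the same arrays that had the most smooth muscle signal, as with Myh11 at 9.27 and 11.04. Fgfbp3, a dim gene named after its values were seen, read 3.62, 3.69, 3.84 and 3.90 in WT and 4.57, 4.33 and 4.59 in ASC-/-, a difference of 0.73 that missed the threshold (limma adjusted p = 0.101), within background on all 7 arrays.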
